A study of Rattus norvegicus with 12 samples.

Results

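The 8 genes described here encode 6 nuclear receptors, a coactivator and an RNA-binding cofactor that are known for their part in the gene programme of the kidney proximal tubule: Hnf4a, Hnf4g, Ppara, Nr1h4, Esrra, Esrrg, Ppargc1a and A1cf. They were chosen by name, and all 8 of 8 were among the 13151 genes with values and among the 11633 genes that passed the filter on low values. The RNA came from renal cortex, taken from 12 male rats at 32 weeks of age. The 4 ZL rats (Zucker Lean) were untreated lean controls. The 4 ZF rats (Zucker Fatty) carried the leptin receptor defect that makes this strain obese, and received no drug. The 4 ZF-SGLT2i rats were ZF rats that received canagliflozin, an inhibitor of the glucose transporter SGLT2, mixed into the food at 10 mg/kg/day, which began at an age of 24 weeks and lasted 8 weeks. The ZL rats that the study's methods describe all had wedges of kidney removed at earlier ages, and no such surgery is described for the set of rats that the treated ones came from, so in ZF-SGLT2i against ZL rats surgery and group cannot be told apart. Untreated ZF rats were in both sets. The labels do not say which set those sequenced came from. The study calls them ZF, its name for the obese rats of the biopsied set. In a figure legend it also calls them ZF-NT, its name for the untreated arm of the treatment set. If they came from the treatment set, the same holds for ZF against ZL. Lean rats given the drug were not analysed here, so an action of the drug without obesity could not be examined. Between 8824980 and 12210257 reads per rat lay on genes. Levels are given as CPM, the counts of a gene scaled to a common library total with the TMM scaling of edgeR, which corrects for library size and composition but not for gene length, so levels are compared between rats and not between genes.

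The proximal tubule reabsorbs most of the filtered glucose, amino acids, phosphate and organic solutes, and covers the cost of this transport mainly by burning fatty acids in its mitochondria. HNF4A and its paralogue HNF4G bind the same DNA element and switch on transporter and brush border genes. PPARA is a receptor for fatty acids that raises the enzymes of fatty acid oxidation and ketone body synthesis, while ERR alpha and ERR gamma (Esrra and Esrrg), together with the coactivator PGC-1alpha (Ppargc1a), raise mitochondrial genes. FXR (Nr1h4) is the bile acid receptor, and A1CF binds messenger RNA as a cofactor of the cytidine deaminase APOBEC1 and also takes part in splicing.

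The start of transcription of 6 of the 8 genes could be matched in the RefSeq promoter table (build GRCr8), in 10 windows of the 250 bases upstream of a start; Hnf4g and Nr1h4 were not matched. The windows of Ppara, the gene that rose most, and of the coactivator gene Ppargc1a are shown because they differ in kind. The Ppargc1a window (chr14:63634058-63634307, plus strand) has a GC content of 50.4%, and the capitals mark a cAMP response element, TGACGTCA, at 181 to 174 bases before the start. In the Ppara window (chr7:118712357-118712606, plus strand; GC content 76.0%) the capitals mark its 27 CG dinucleotides, against a median of 5 over the 33469 windows of the table.
Ppargc1a: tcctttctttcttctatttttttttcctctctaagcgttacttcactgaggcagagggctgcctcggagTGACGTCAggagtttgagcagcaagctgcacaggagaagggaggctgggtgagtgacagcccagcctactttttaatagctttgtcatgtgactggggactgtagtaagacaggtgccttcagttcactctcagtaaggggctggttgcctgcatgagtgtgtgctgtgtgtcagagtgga
Ppara: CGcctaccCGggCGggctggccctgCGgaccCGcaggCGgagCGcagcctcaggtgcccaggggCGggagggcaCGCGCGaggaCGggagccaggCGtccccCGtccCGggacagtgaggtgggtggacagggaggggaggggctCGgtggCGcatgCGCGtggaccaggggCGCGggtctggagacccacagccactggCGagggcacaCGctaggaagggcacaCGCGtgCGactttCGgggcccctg
Searched for on both strands, the cAMP response element stood in 1.59% of the windows of the table. The nuclear receptor half-site AGGTCA stood in 14.1% of all windows and in 1 of the 10 windows of the 8 genes, an Esrrg start, on the minus strand. The HNF4 site CAAAGTCCA (0.338% of all windows) and the ERR element TCAAGGTCA (0.388%), which contains the half-site, were in none of the 10. A match of letters describes these windows and does not show that a factor was bound.

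The question behind the first comparison was how the obese kidney differed from the lean one. In ZF rats A1cf was 2.48-fold lower and Hnf4g 1.50-fold lower than in ZL rats, and Ppara was 1.48-fold higher. The other 5 regulators were not called. Of the 8, 1 rose and 2 fell, where 8.19% of the tested genes were called higher and 10.6% lower (limma on log2(CPM + 1), two-sided, Benjamini-Hochberg adjusted p under 0.05 over the 11633 genes; the same rule is used throughout). The 4 ZL and 4 ZF values did not overlap for 4 of the 8, against 19.0% of all tested genes. The median difference of the 8 was -0.11 on the log2 scale, against -0.01 for all tested genes.

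**Figure D1:**
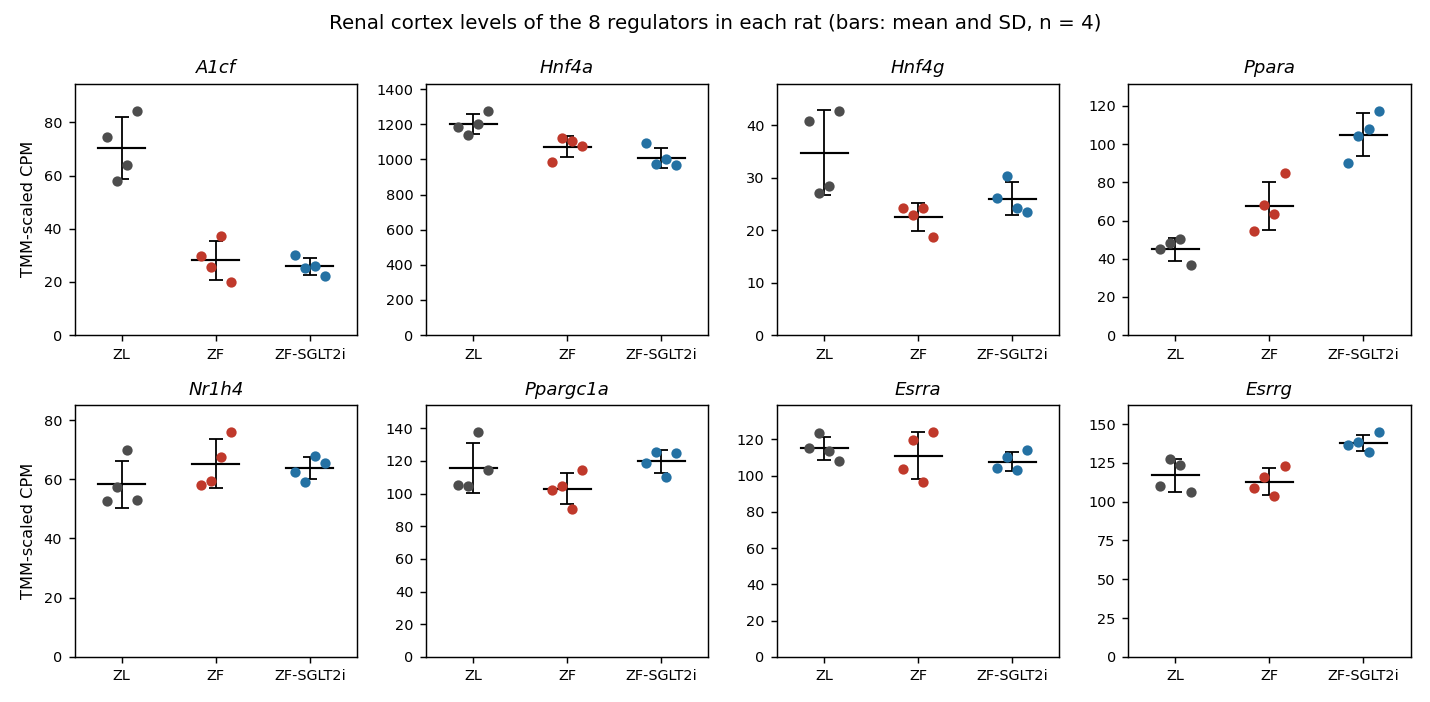
Level of each of the 8 regulators in each rat (TMM-scaled CPM, vertical axes from 0) by group, with 1 point per rat and the mean and SD of 4 rats as bars. A1cf lies between 58.0 and 84.4 CPM in ZL rats and at most at 37.1 CPM in all 8 ZF and ZF-SGLT2i rats, while Ppara climbs over the 3 groups without overlap.

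A1cf had the largest difference of the 8. Its level was 74.6, 58.0, 63.8 and 84.4 CPM in ZL rats 1 to 4, 29.7, 25.8, 37.1 and 19.9 CPM in ZF rats 2 to 5, and 30.2, 25.3, 25.9 and 22.3 CPM in ZF-SGLT2i rats 2, 3, 4 and 6. Every ZF rat, treated or not, lay below every ZL rat. The mean was 70.2 ± 11.7 CPM in ZL, 28.1 ± 7.22 CPM in ZF and 25.9 ± 3.25 CPM in ZF-SGLT2i rats (SD, n = 4 each). The log2 difference was -1.31 (SE 0.16) between ZF and ZL rats (limma adjusted p = 0.000217) and -1.40 (SE 0.16) between ZF-SGLT2i and ZL rats (adjusted p = 7.27e-05). Among the 11633 tested genes, only 0.765% had a lower fitted difference between ZF and ZL. With canagliflozin, A1cf differed from untreated ZF rats by -0.09 on the log2 scale, with a 95% interval from -0.43 to 0.26. Any difference between these bounds, a fall or a smaller rise, was compatible with the data.

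Of the 5 partner genes of A1CF 0 rose and 1 fell in ZF rats, where 8.19% and 10.6% of all tested genes did, with a median of 0.09. The gene that fell was Rbm47, which encodes another cofactor of the deaminase. It fell by 0.36 on the log2 scale (limma adjusted p = 0.0063), from 274 to 364 CPM in ZL rats to 236 to 256 CPM in ZF rats, without overlap. In ZF-SGLT2i rats Rbm47 lay between 259 and 291 CPM, and was called different from neither other group. Apobec1 itself ranged from 6.52 to 12.6 CPM over the 12 rats and was called in none of the comparisons. The genes whose levels followed A1cf most closely over the 12 rats were Proz (Pearson r = 0.993), Osbpl8 (r = 0.985) and Cyp4f1 (r = 0.984), out of 8631 genes whose mean level reached 10 CPM, and after the group means were removed r was 0.943, 0.902 and 0.903. These r values describe 12 rats in 3 groups and carry no test.

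A1cf also moved with the mean level of the proximal tubule markers, though not with each of them. Of 14 such markers 5 fell and 0 rose in ZF rats (35.7% and 0%, against 10.6% and 8.19% of all tested genes; 3 fell without ZF rat 2, 3 or 5 or without ZL rat 1), with a median of -0.17 on the log2 scale, and their summed level was 12809 to 15534 CPM in ZL, 8388 to 12354 CPM in ZF and 7649 to 9700 CPM in ZF-SGLT2i rats. Gatm made up the largest part of that sum, none was at 0 in any rat, and r between A1cf and the mean log2 level of the list was 0.93 over the 12 rats and 0.77 after removal of the group means. With the 4 principal cell markers it was -0.88 and -0.89. Slc7a13, an amino acid transporter of the last proximal segment, fell furthest, from 838, 140, 244 and 1896 CPM in ZL rats 1 to 4 to 148, 21.4, 36.0 and 6.12 CPM in ZF rats 2 to 5. Within the ZL group the markers did not move alike. Slc7a13 was higher in ZL rats 1 and 4, as A1cf was, while Gatm was lower there (3034, 3202, 3469 and 2198 CPM in ZL rats 1 to 4). Of the other markers several were lower in these rats and fewer were higher. The r of A1cf with the list without Slc7a13 was not computed. In whole cortex fewer cells of a type and less RNA per cell cannot be told apart. Centred on the mean of the 14 markers, the A1cf difference between ZF and ZL was -0.77 on the log2 scale (limma adjusted p = 0.000483), and on the 13 without Slc7a13 it was -1.04 (adjusted p = 0.000356). The same centring moved the median of all tested genes to 0.53 and 0.26. The part that the markers played in the fall was not tested.

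HNF4G and HNF4A differed in how far they moved. Hnf4g stood at 40.7, 27.0, 28.5 and 42.8 CPM in ZL rats 1 to 4 and at 24.3, 22.9, 24.3 and 18.7 CPM in ZF rats 2 to 5, with 171 to 479 reads per rat behind each value. All ZF values lay below all ZL values, and ZL rats 1 and 4 were well above ZL rats 2 and 3. The difference was -0.58 on the log2 scale (SE 0.14, limma adjusted p = 0.0141). Centred on the 14 proximal tubule markers it was -0.05 (adjusted p = 0.809), and on the 13 without Slc7a13 it was -0.31 (adjusted p = 0.249), so the call was lost in both. Centring shifted all genes alike, and moved the median of all tested genes to 0.53 and 0.26. In ZF-SGLT2i rats Hnf4g was 26.2, 30.3, 24.1 and 23.4 CPM, which overlapped both other groups, and was not called against ZF (0.20, 95% interval -0.11 to 0.51) or against ZL (-0.38, adjusted p = 0.0637).

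Hnf4a stood at 1185, 1138, 1198 and 1278 CPM in ZL rats, 988, 1121, 1105 and 1075 CPM in ZF rats and 1093, 975, 1003 and 968 CPM in ZF-SGLT2i rats. Both obese groups lay below the lean group without overlap, with means of 1200 ± 58.1, 1072 ± 59.6 and 1010 ± 57.3 CPM (SD, n = 4 each). The differences were small. Against ZL rats Hnf4a differed by -0.16 in ZF rats (SE 0.07, limma adjusted p = 0.133), which was not called, and by -0.25 in ZF-SGLT2i rats (adjusted p = 0.0207), which was called. That call was lost in 6 of 24 alternatives: quantile normalization, where the difference came to -0.02 (adjusted p = 0.856), CPM without TMM, the replicate block, and without ZF-SGLT2i rat 3, ZF-SGLT2i rat 6 or ZL rat 4.

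The levels of genes known to be driven by HNF4 went in both directions. Of 13 tested targets, 3 rose and 4 fell in ZF against ZL rats (23.1% and 30.8%, against 8.19% and 10.6% of all tested genes), with a median of -0.21. In ZF-SGLT2i against ZL rats 1 rose and 7 fell (7.69% and 53.8%, against 12.4% and 15.0%), with a median of -0.29. Of the 14 proximal tubule markers 5 fell and 0 rose in each of these comparisons, with medians of -0.17 and -0.34. Their part in the levels of the targets was not tested. The HNF4 targets that fell in ZF rats were Tmem27, a brush border partner of amino acid transporters (-0.55), Apom, an apolipoprotein (-0.48), Cdhr5, a cadherin that links microvilli (-0.48), and Pdzk1, a scaffold of the brush border (-0.41). Pck1, which encodes the rate-limiting enzyme of gluconeogenesis, rose by 0.71, and the glucose transporter gene Slc2a2 by 0.55. Leaving out single rats left 0 to 3 of the targets higher and 3 to 7 lower, and without ZF rat 4 the count was 0 higher and 7 lower. The call of Tmem27 in ZF rats was lost in 12 of 24 alternatives, that of Slc2a2 in 5 and that of Pck1 in 4. With canagliflozin 0 rose and 2 fell against ZF rats (1.39% and 1.75% of all tested genes did), Fbp1 by 0.65 and the organic anion transporter gene Slc22a6 by 0.59. Without ZF-SGLT2i rat 3 or 6 the call of Fbp1 was lost and 1 target fell, and without ZL rat 4 1 rose.

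Ppara was the member that rose in every comparison. Its level was 44.9, 48.5, 50.1 and 36.7 CPM in ZL rats, 54.6, 68.0, 63.6 and 84.7 CPM in ZF rats and 90.3, 104, 108 and 118 CPM in ZF-SGLT2i rats, with 411 to 1071 reads per rat. The 3 groups formed a staircase with no overlap at either step. The means were 45.0 ± 5.97, 67.7 ± 12.6 and 105 ± 11.3 CPM (SD, n = 4 each). The log2 difference was 0.57 (SE 0.13) for ZF against ZL (limma adjusted p = 0.00857), 0.64 (SE 0.13) for ZF-SGLT2i against ZF (adjusted p = 0.0162) and 1.21 (SE 0.13) for ZF-SGLT2i against ZL (adjusted p = 3.25e-05). The first 2 of these share the ZF rats. Only 0.748% of the tested genes had a higher fitted difference with the drug. Without ZF rat 4 or without ZF-SGLT2i rat 6 the drug difference just missed the threshold (0.61, adjusted p = 0.0502, and 0.58, adjusted p = 0.0566). The call of Ppara in ZF against ZL was lost in 1 of 24 alternatives, the replicate block (limma adjusted p = 0.0599).

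**Figure D2:**
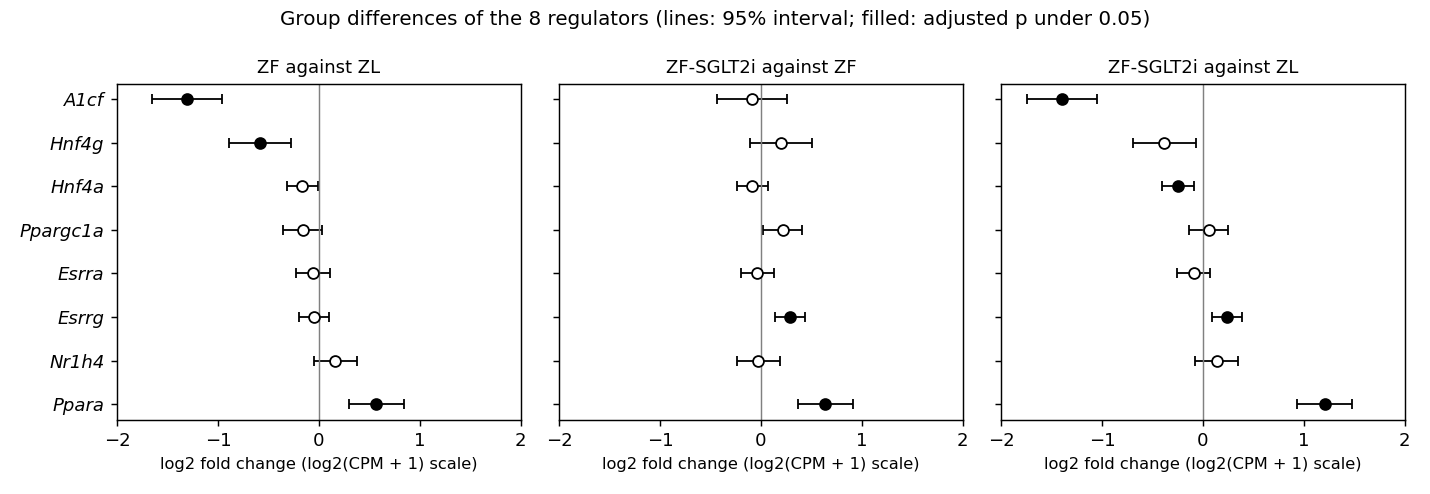
Fitted log2 difference (log2(CPM + 1) scale, horizontal axis) of the 8 regulators in the 3 comparisons, with 95% intervals as lines and filled points where the adjusted p was under 0.05. A1cf lies at -1.31 and -1.40 against ZL and near 0 with the drug, whereas Ppara lies right of 0 in all 3 panels.

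Canagliflozin against no drug was the second comparison, which asked what the inhibitor changed in the obese kidney. Of the 8 regulators, 2 rose (Ppara 1.55-fold and Esrrg 1.22-fold) and 0 fell, where 1.39% of tested genes were called higher and 1.75% lower. No overlap was seen for 2 of the 8, against 11.2% of all tested genes, and the median of the 8 was 0.09, against 0.01 for all tested genes. Without single rats the number of regulators called ranged from 0 to 2, and it was 0 without ZF rat 4 or without ZF-SGLT2i rat 6. In the third comparison, ZF-SGLT2i against ZL, 2 rose (Ppara and Esrrg) and 2 fell (A1cf and Hnf4a), with 12.4% of tested genes called higher and 15.0% lower. There 4 of the 8 showed no overlap, against 28.0% of all tested genes.

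Of 27 tested targets of PPARA, 4 rose and 5 fell in ZF against ZL rats (14.8% and 18.5%, against 8.19% and 10.6% of all tested genes), with a median of 0.02. Without single rats 4 to 5 rose and 3 to 6 fell, with 3 lower without ZF rat 2, ZF rat 5, ZF-SGLT2i rat 2, ZL rat 1 or ZL rat 3. In ZF-SGLT2i against ZF rats 8 rose and 0 fell (29.6% and 0%, against 1.39% and 1.75%), with a median of 0.16. Without single rats 6 to 8 rose there, and DESeq2 called 9 higher and 1 lower. In ZF-SGLT2i against ZL rats 11 rose and 3 fell (40.7% and 11.1%, against 12.4% and 15.0%).

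**Figure D3:**
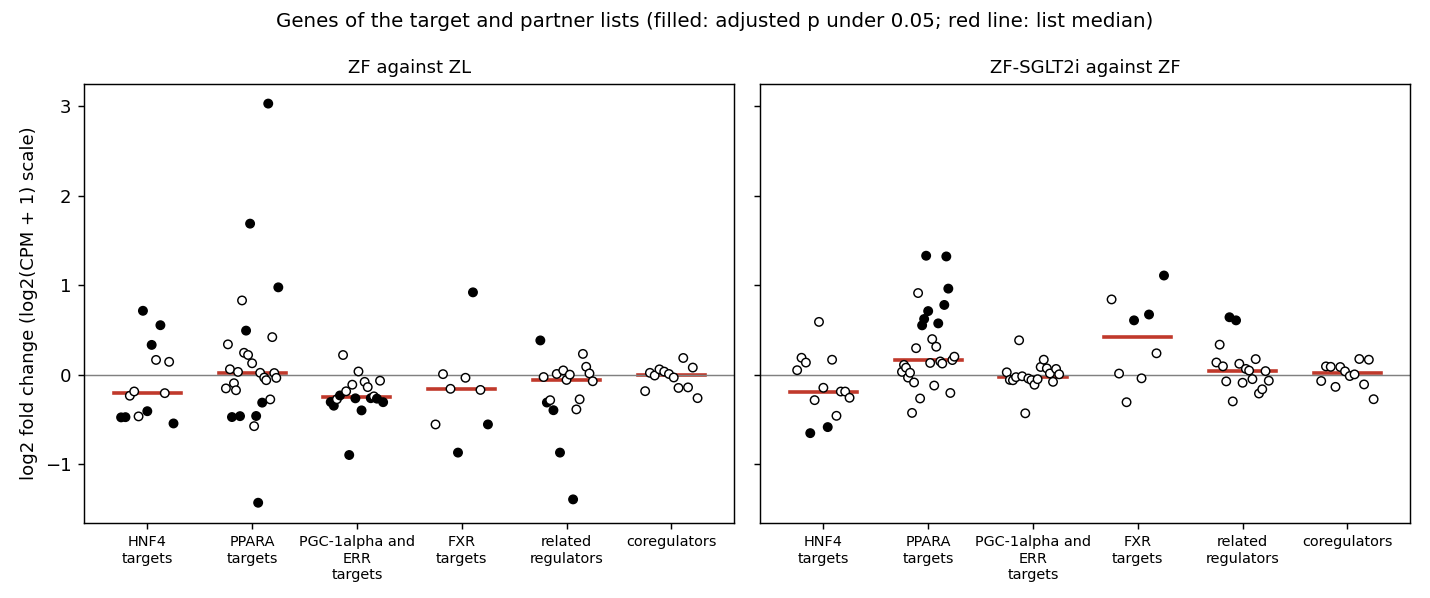
Fitted log2 difference (log2(CPM + 1) scale) of every tested gene of 6 lists, without drug (left, ZF against ZL) and with it (right, ZF-SGLT2i against ZF), with filled points where the adjusted p was under 0.05 and a red line at the list median. In the right panel 8 PPARA targets are filled and all lie above 0, while none of the PGC-1alpha and ERR targets is filled.

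Creb3l3, a transcription factor of fasting metabolism, went from 0.18 to 0.90 CPM in ZL rats, which is only a few reads, to 2.21 to 5.38 CPM in ZF and 8.35 to 13.3 CPM in ZF-SGLT2i rats. Cpt1a, the gate of fatty acid entry into mitochondria, rose at both steps, by 0.49 (adjusted p = 0.00035) and by 0.55 (adjusted p = 0.000586).

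Other targets were called at a single step. Pdk4, a kinase that holds back glucose oxidation, stood at 6.01 to 9.28 CPM in ZL and 4.81 to 7.26 CPM in ZF rats, and at 15.3, 23.3, 10.7 and 20.4 CPM in ZF-SGLT2i rats, a rise of 1.32 with the drug (limma adjusted p = 0.00315). Pex11a, which takes part in the division of peroxisomes, rose by 0.96 with the drug (adjusted p = 0.00315). Vnn1, which encodes a pantetheinase, rose by 0.98 in ZF rats (adjusted p = 0.0039) and differed by 0.20 with the drug (adjusted p = 0.636). The targets that fell in ZF rats included Cyp4a8, a fatty acid hydroxylase (-1.43, adjusted p = 0.0111), and Acadm, a dehydrogenase of beta oxidation (-0.47). Members of the Cyp4a family are similar in sequence, so reads could be split among them in counting.

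**Figure D4:**
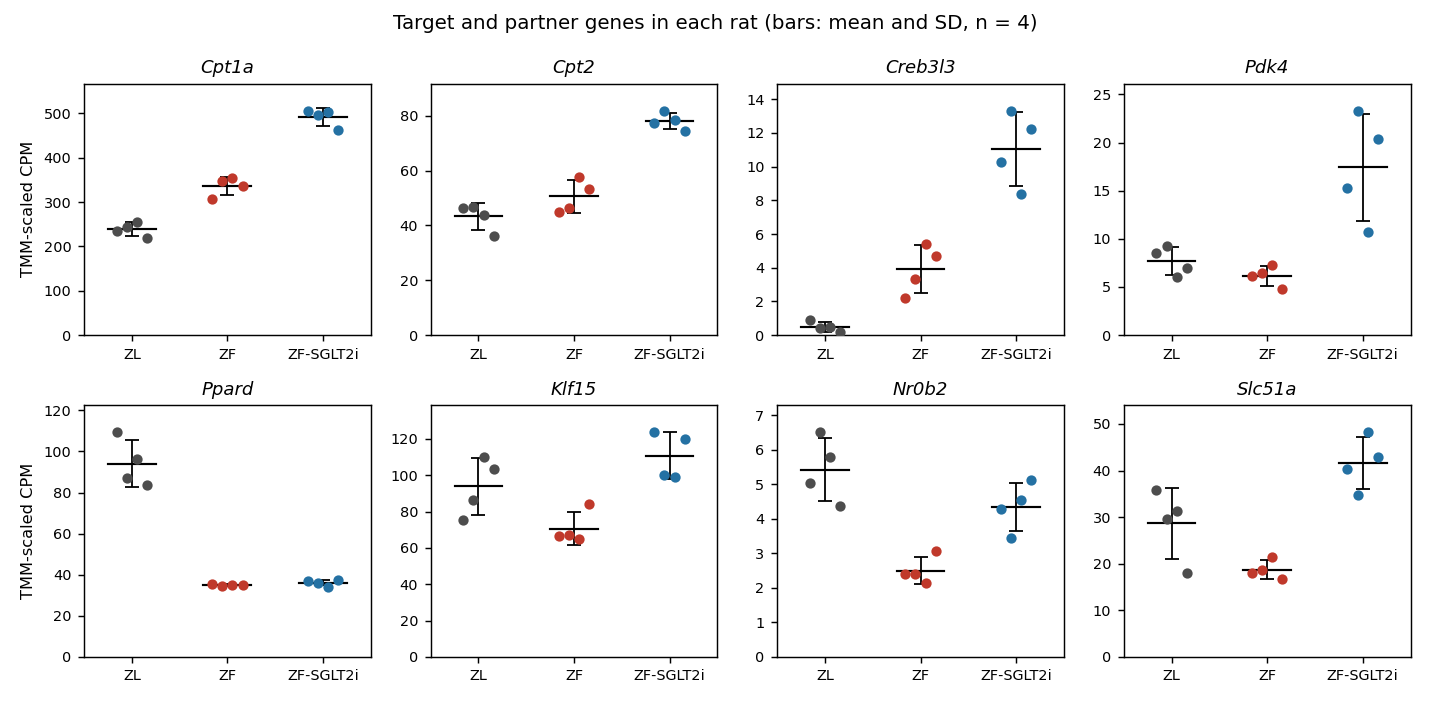
Level (TMM-scaled CPM, axes from 0) of the PPARA targets Cpt1a, Cpt2, Creb3l3 and Pdk4, of Ppard and Klf15, and of the FXR targets Nr0b2 and Slc51a in each rat, with the mean and SD of 4 rats as bars. Cpt1a and Creb3l3 step up from ZL to ZF to ZF-SGLT2i without overlap, Pdk4 is high only in ZF-SGLT2i rats (10.7 to 23.3 CPM), and Ppard is at 34.2 to 37.3 CPM in all 8 ZF and ZF-SGLT2i rats.

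The nearest relative of Ppara behaved differently. Ppard, the receptor of the same family that also serves fatty acid oxidation, stood at 109, 86.9, 96.3 and 83.9 CPM in ZL rats and between 34.4 and 35.6 CPM in ZF rats. The 4 ZF values were almost the same, and all were far below the lean ones. It fell by 1.39 on the log2 scale (SE 0.07, limma adjusted p = 2.15e-07) and differed by 0.05 with the drug (95% interval -0.11 to 0.21).

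Ppara also moved with markers of the distal nephron and collecting duct. The 4 principal cell markers summed to 793, 993, 726 and 597 CPM in ZL rats, 958, 1134, 798 and 1152 CPM in ZF rats and 1278, 1404, 1351 and 1612 CPM in ZF-SGLT2i rats. Of the 4, Scnn1g alone rose in ZF against ZL rats (0.56; 4 rose without ZL rat 2, 3 without ZF rat 4 and 2 without ZF-SGLT2i rat 6), Aqp2, the largest part of the sum, alone rose with the drug (0.62, limma adjusted p = 0.0495, lost in 15 of 24 alternatives), and all 4 rose in ZF-SGLT2i against ZL rats. Of all tested genes 8.19%, 1.39% and 12.4% were called higher in these 3 comparisons, in that order. None of the 4 markers was at 0 in any rat. Over the 12 rats r between Ppara and the mean log2 level of the list was 0.94, and 0.75 after the group means were removed, r with the 2 distal tubule markers was 0.81 and 0.87, with the 4 intercalated cell markers 0.78 and 0.73, and with the proximal tubule list -0.86 and -0.49. The part of this in the rise of Ppara was not tested, and the genes closest to it were Ccl28 (r = 0.973), A4galt (r = 0.971) and Arnt2 (r = 0.964).

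ERR gamma rose with the drug only. Esrrg stood at 110, 128, 124 and 106 CPM in ZL rats, 109, 116, 104 and 123 CPM in ZF rats and 136, 138, 132 and 145 CPM in ZF-SGLT2i rats. The treated rats lay above all 8 others, and the lean and the untreated obese rats overlapped. The log2 difference was 0.29 against ZF (SE 0.07, limma adjusted p = 0.0424) and 0.24 against ZL rats (adjusted p = 0.0233), a call lost in 5 of 24 alternatives (the replicate block, and without ZF-SGLT2i rat 3 or 6 or ZL rat 1 or 4). The call against ZF was lost in 12 of 24 alternatives, with adjusted p from 0.0086 to 0.123, among them each of the leave-outs of ZF rats 2 to 4 and of the 4 ZF-SGLT2i rats, while the difference stayed between 0.24 and 0.33.

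Esrrg followed genes of the distal nephron and collecting duct. The 2 genes closest to it over the 12 rats were Atp6v1g3, a proton pump subunit of intercalated cells (r = 0.978), and Slc4a9, an anion exchanger of the same cells (r = 0.968), with r of 0.965 and 0.960 after removal of the group means. With the mean log2 level of the 4 intercalated cell markers r was 0.98 (0.96 after that removal). It was 0.86 (0.84) with the 2 distal tubule markers, 0.79 (0.84) with the 4 principal cell markers and -0.59 (-0.62) with the 14 proximal tubule markers. The 4 intercalated markers summed to 966, 1357, 1213 and 880 CPM in ZL, 973, 1139, 836 and 1284 CPM in ZF and 1464, 1477, 1443 and 1511 CPM in ZF-SGLT2i rats, with Slc4a1 the largest part of the sum and none at 0. They were not called with the drug (0 of 4, median 0.48), though DESeq2 on the reads called 3 of 4, and limma called 4 without ZF rat 5, 3 without ZL rat 4 and 2 without ZL rat 2. In ZF-SGLT2i against ZL rats 3 of the 4 rose, with a median of 0.52 (2 rose without ZL rat 1). Of all tested genes 1.39% were called higher with the drug and 12.4% in ZF-SGLT2i against ZL rats. Whole-cortex values do not place Esrrg in a cell type, so for this gene the proximal tubule label could not be borne out from the data, and the part of the intercalated cells in its rise was not tested.

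**Figure D5:**
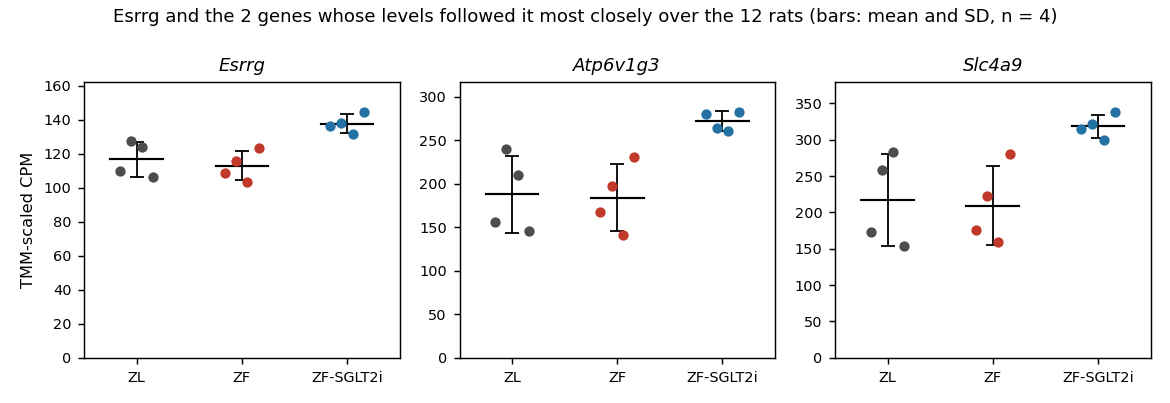
Level (TMM-scaled CPM, axes from 0) of Esrrg and of the 2 genes closest to it in each rat, with the mean and SD of 4 rats as bars. In all 3 panels ZL rats 2 and 3 and ZF rats 3 and 5 lie above the other rats of their group, and the 4 ZF-SGLT2i rats lie above all 8 others.

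The same rats that were low in Esrrg were high in other members. ZL rats 1 and 4 had the lower Esrrg and intercalated marker levels of their group and the higher A1cf and Hnf4g levels. In the same way ZF rats 2 and 4 had the lower Esrrg and the higher A1cf and Hnf4g levels among ZF rats. The proximal tubule markers were split, with Slc7a13 higher and Gatm lower in ZL rats 1 and 4 than in ZL rats 2 and 3. Once the group means were removed, r with the intercalated list was -0.91 for A1cf, -0.84 for Hnf4g, 0.83 for Esrra and 0.96 for Esrrg over the 12 rats. These r values share the libraries and their scaling, and carry no test.

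Esrra and Ppargc1a were called in no comparison. Esrra ranged from 96.4 to 124 CPM over the 12 rats, with group means of 115 ± 6.27, 111 ± 13.0 and 108 ± 5.21 CPM (SD, n = 4 each; ZL, ZF, ZF-SGLT2i). The 3 groups overlapped, and the interval of its difference between ZF and ZL was -0.22 to 0.11. Ppargc1a stood at 105, 105, 138 and 115 CPM in ZL, 102, 105, 90.8 and 114 CPM in ZF and 119, 126, 110 and 125 CPM in ZF-SGLT2i rats. Its rise of 0.22 with the drug reached an unadjusted p of 0.03 but an adjusted p of 0.223 in limma, and 1 ZF rat lay within the treated range.

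Of 18 tested mitochondrial genes known to be driven by PGC-1alpha and the ERRs, 9 fell, 0 rose and 9 were not called in ZF against ZL rats, where 10.6% of all tested genes fell and 8.19% rose, with a median of -0.25. Of the 14 proximal tubule markers 5 fell and 0 rose there (median -0.17), and their part in this fall was not tested. In ZF-SGLT2i against ZF rats 0 rose and 0 fell (1.39% and 1.75% of all tested genes did), with a median of -0.02. For these genes DESeq2 called 1 lower and edgeR 0 in the same comparison. Cycs, the electron carrier cytochrome c, stood at 756, 591, 674 and 875 CPM in ZL, 387, 371, 466 and 325 CPM in ZF and 291, 269, 346 and 242 CPM in ZF-SGLT2i rats, and fell by 0.90 in ZF rats (SE 0.14, limma adjusted p = 0.000994) without overlap. Ndufs1, a subunit of complex I, fell by 0.40, and Atp5a1, a subunit of ATP synthase, by 0.35. The count of 9 was sensitive to scaling and to single rats: it was 2 with CPM without TMM and with quantile normalization, and without single rats it ranged from 3 (without ZL rat 1 or ZF rat 2) to 11, with 5 without ZF rat 3 or 5 and 6 without ZL rat 3. Cycs kept its call in all 24 alternatives.

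Nr1h4, the bile acid receptor gene, did not differ detectably. It stood at 52.8, 57.5, 69.7 and 53.1 CPM in ZL, 58.0, 59.5, 67.5 and 75.9 CPM in ZF and 62.5, 59.2, 68.0 and 65.5 CPM in ZF-SGLT2i rats, and the 3 groups overlapped. The interval of its difference was -0.05 to 0.37 for ZF against ZL and -0.24 to 0.19 for ZF-SGLT2i against ZF, so changes of the size seen for Ppara lay outside both. Of 8 tested FXR targets 1 rose and 2 fell in ZF rats, where 8.19% and 10.6% of all tested genes did, and 3 rose and 0 fell with the drug, where 1.39% and 1.75% did. Without single rats 1 to 3 fell in ZF rats (1 without ZF rat 2, 3 or 5 or ZL rat 1, 2 or 3), and 2 to 3 rose with the drug.

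Sdc1, a cell surface proteoglycan, stood at 9.42 to 10.6 CPM in ZL, 18.0 to 24.3 CPM in ZF and 30.6 to 34.6 CPM in ZF-SGLT2i rats, and rose at both steps (0.92, limma adjusted p = 3.37e-05, and 0.67, adjusted p = 0.00128). Slc51a, a subunit of the basolateral bile acid and steroid exporter, was 35.8, 29.6, 31.3 and 18.0 CPM in ZL, 17.9, 18.7, 21.5 and 16.6 CPM in ZF and 40.4, 34.8, 48.2 and 42.8 CPM in ZF-SGLT2i rats. It fell by 0.56 in ZF rats (adjusted p = 0.034), where 1 ZL rat lay within the ZF range and the call was lost in 9 of 24 alternatives, and rose by 1.11 with the drug (adjusted p = 0.00298). Nr0b2, a repressor that FXR induces, was 4.38 to 6.50 CPM in ZL, 2.14 to 3.06 CPM in ZF and 3.43 to 5.13 CPM in ZF-SGLT2i rats, a fall of 0.87 (adjusted p = 0.00146) and a rise of 0.61 (adjusted p = 0.0315), the second lost in 7 of 23 alternatives. The fall and the rise share the ZF rats.

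Among 17 related regulators 1 rose and 4 fell in ZF rats (5.88% and 23.5%, against 8.19% and 10.6% of all tested genes), with a median of -0.06. Besides Ppard and Nr0b2 they included Klf15, a factor of amino acid and glucose metabolism (-0.40), and Cebpa, a metabolic factor that rose (0.38), with calls lost in 9 and 2 of 24 alternatives. With the drug 2 rose and 0 fell, where 1.39% and 1.75% of all tested genes did. They were Nr0b2 and Klf15, the latter from 66.3, 66.8, 65.0 and 84.3 CPM in ZF to 124, 100, 99.0 and 120 CPM in ZF-SGLT2i rats (0.64, limma adjusted p = 0.0115), above all ZF rats.

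Of 12 tested coregulators none was called for obesity (ZF against ZL) or for the drug (ZF-SGLT2i against ZF) by limma or by edgeR, with 4 and 1 at an unadjusted p under 0.05, and DESeq2 called 1 lower in the first and 0 in the second. Without ZF rat 4 limma called 1 higher and 1 lower for obesity, and without ZF rat 5 it called 1 lower for the drug. In ZF-SGLT2i against ZL rats, where 12.4% of all tested genes rose and 15.0% fell, 2 rose, among them Prkaa1 (0.25), and 2 fell, the corepressor gene Nrip1 (-0.25) and Prkaa2 (-0.54). Prkaa1 and Prkaa2 encode the alternative catalytic subunits of AMP-activated kinase, which acts on PGC-1alpha. The call of Prkaa1 was lost in 8 of 24 alternatives (the replicate block, and without any single ZF-SGLT2i rat or without ZL rat 1, 2 or 4), with adjusted p up to 0.158, and 1 coregulator rose when any of these rats was left out.

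Several of these genes are known to follow the time of day, as Ppara, Klf15 and Nr0b2 do in the liver. The clock genes Arntl and Dbp differed between the lean and the obese rats. Arntl, a core clock gene, stood at 30.4 to 51.4 CPM in ZL and 1.42 to 7.01 CPM in ZF rats (-3.38, limma adjusted p = 1.12e-05). Dbp, a clock output gene, stood at 25.3 to 65.9 CPM in ZL and 182 to 297 CPM in ZF rats (2.68, adjusted p = 1.12e-05). Both were chosen after their values were seen. With the drug they differed by -0.29 and 0.24, and neither was called. The hour at which the kidneys were taken is not given in the sources used here, and the part of the clock in the differences between ZF and ZL rats was not tested.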

How the data were processed

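Total RNA of renal cortex was depleted of ribosomal RNA and sequenced as directional paired-end libraries. The submitters' processing notes name Trimmomatic 0.38, RSEM 1.3.0, Bowtie2, edgeR and build rn6, without their roles. The deposited signal values were read counts that the authors scaled per rat, and each was a whole number of reads (100% of values, tolerance 0.001) times the constant of CPM with TMM factors. Genes that reached a value of 1 in 4 or more rats were fitted with limma 3.58.1 (R 4.3.3) on log2(value + 1), eBayes with trend, all 12 rats in 1 fit, two-sided, with Benjamini-Hochberg adjustment over all tested genes. Alternatives included edgeR 4.0.16 and DESeq2 1.42.0 on the recovered reads, other scalings and filters, and each rat left out. The p-values measure the spread between rats. Named genes were the 8 members, up to 4 called genes with the largest change per list, the 3 genes most like each member and the gene with the highest CPM of each marker list. The members and lists were chosen with earlier results of these data known. Sirt1, Ncoa3, Ep300, Kat2b, G6pc1, Fabp1, Fgf21, Ckmt2, Slc51b, Fgf15 and some markers were not analysed here, and some genes that this rule names are not reported here. No 2 rats of a group were copies (chi-square per gene from 5.63). The main fit did not pair the rats by replicate number.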

Additional observations from a re-analysis of the deposited data

How the results depend on the processing

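Over 24 alternatives, 532 values of the 8 regulators kept direction and side of the threshold, 27 lost their call, 4 gained it and 13 changed sign. A1cf and Ppara against ZL in the treated rats, and A1cf in ZF against ZL, kept their calls in all 24. The numbers of genes called were 2185, 366 and 3184 (ZF against ZL, ZF-SGLT2i against ZF, ZF-SGLT2i against ZL), with 3, 2 and 4 regulators among them. Without single rats the lowest and highest numbers of genes were 1389 and 2453, 176 and 570, and 2241 and 3302, and those of regulators were 3 and 3, 0 and 2, and 2 and 5. For ZF-SGLT2i against ZF, array quality weights called 689 genes and DESeq2 641, and 1 regulator was called by edgeR, by quantile normalization and by CPM without TMM.

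Rats with the same number did not deviate together more than others (9 pairs, r from -0.46 to 0.38, against -0.55 to 0.56 for other pairs, and 2 of 18 best with their own number). The labels do not say what the number stands for, and so few pairs cannot exclude a shared step behind it. With the replicate block, 807, 223 and 1502 genes and 1, 1 and 2 regulators were called, and uncalled Nr1h4 came to 0.035 in ZF-SGLT2i against ZF and Ppargc1a to -0.00405 in ZF-SGLT2i against ZL.

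The other sign changes were of uncalled values near 0. In ZF against ZL, Hnf4a was 0.015 under quantile normalization, Esrra 0.051 without TMM and 0.016 under quantile normalization, and Esrrg 0.059 without TMM and 0.027 under quantile normalization. Leaving out single rats moved Esrra from -0.11 to 0.0075 in that comparison (the highest without ZF rat 4). In ZF-SGLT2i against ZF it moved Esrra from -0.10 to 0.020 and Nr1h4 from -0.078 to 0.049 (both highest without ZF rat 5), and A1cf from -0.24 without ZF rat 5 to 0.053 without ZF rat 4.

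Centring on the proximal tubule markers moved the median of all tested genes to 0.53, 0.19 and 0.72 in the 3 comparisons, and to 0.26, 0.15 and 0.42 without Slc7a13, a choice made after seeing the data as was leaving Rn28s and Rn45s out of the totals. This shift by itself turned signs. In ZF against ZL, with and without Slc7a13 in that order, Hnf4a came to 0.38 and 0.11, Ppargc1a to 0.38 and 0.11, Esrra to 0.48 and 0.22, and Esrrg to 0.49 and 0.22. In ZF-SGLT2i against ZF, Hnf4a came to 0.10 and 0.056, Esrra to 0.15 and 0.11, Nr1h4 to 0.16 and 0.12, and A1cf to 0.10 and 0.055. In ZF-SGLT2i against ZL, Hnf4a came to 0.47 and 0.17, Hnf4g to 0.34 and 0.032, and Esrra to 0.63 and 0.32.

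Depth was not even among the genes: 171 to 14303 reads per rat lay behind the 8 regulators, while Creb3l3 in ZL rats and Nr0b2 in all rats rested on few reads and have wide counting errors.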

Other observations

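Of 8 tested markers of injured tubule cells, 5 rose, 0 fell and 3 were not called in ZF against ZL rats (where 8.19% of all tested genes rose and 10.6% fell), with a median of 0.87 on the log2 scale, and their summed level was 424 to 500 CPM in ZL, 641 to 2009 CPM in ZF and 496 to 1233 CPM in ZF-SGLT2i rats. The largest rise was that of Havcr1, the gene of kidney injury molecule KIM1, from 1.56 to 1.88 CPM in ZL rats to 52.3, 14.6, 32.1 and 7.32 CPM in ZF rats (3.02, limma adjusted p = 0.0038). With the drug 0 rose and 1 fell, where 1.39% and 1.75% of all tested genes did. That 1 was not called without single ZF rats 2, 3 or 4 or any single ZF-SGLT2i rat. Over the 12 rats r of the injury list with A1cf was -0.51, and 0.72 after removal of the group means.

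Of 5 tested fibroblast genes, 2 rose and 0 fell in ZF against ZL rats (where 8.19% of all tested genes rose and 10.6% fell). In ZF-SGLT2i against ZF rats 0 rose and 4 fell (where 1.39% of all tested genes rose and 1.75% fell), with a median of -0.79. They summed to 322 to 498 CPM in ZL, 468 to 752 CPM in ZF and 336 to 374 CPM in ZF-SGLT2i rats. Without single rats 1 to 3 of them rose in the first comparison (1 without ZF rat 2 or 4, ZF-SGLT2i rat 2 or 3, or ZL rat 1 or 3) and 2 to 5 fell in the second (2 without ZF rat 2 or 4 or ZF-SGLT2i rat 3 or 4). Of 6 podocyte markers 3 rose and 0 fell in ZF against ZL rats, where 8.19% and 10.6% of all tested genes did. The count of 3 ranged from 1 (without ZF rat 2, ZF rat 5 or ZL rat 1) to 5 (without ZL rat 2) when single rats were left out. With the drug 0 podocyte markers were called, where 1.39% of all tested genes rose and 1.75% fell. For the endothelial and macrophage lists (6 genes each) limma called 0 in either comparison, with 4 and 1 endothelial and 1 and 1 macrophage genes at an unadjusted p under 0.05. Without ZL rat 2, 3 endothelial genes were called higher in ZF against ZL rats, and 1 was when ZF-SGLT2i rat 4 or 6 or ZF rat 5 was left out. In CPM without TMM 4 endothelial genes and 1 macrophage gene were called higher there. Of the macrophage genes 1 was called higher in ZF against ZL rats without ZF rat 5, and 1 lower with the drug without ZF-SGLT2i rat 2.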
